A study of Homo sapiens with 12 samples.

Results

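ZNF263 knockout cells that had been given ZIC2 were compared with wild type cells of H1 (WA01), a long-established human embryonic stem cell line. The libraries were chosen by their labels alone, 3 of ZNF263 homozygous knockout with ZIC2 overexpression and 3 of wild type, which makes 6 of the 12 in the series. The study set out to examine ZNF263 in the control of pluripotency, with ZIC2 as its cofactor, and this comparison shows what still set the knockout apart from wild type once ZIC2 was supplied. The names of the wild type libraries carry the tag vec, and the knockout libraries with ZIC2 share a line tag with 3 knockout libraries that also carry vec. Those 3 knockout libraries are quoted for the level of each gene without added ZIC2. Another 3 libraries, of cells that overexpressed ZNF263, entered the choice of tested genes, the scaling and the estimate of spread. Their levels are not quoted. The sources used here do not give the edit of ZNF263, the number of knockout clones, the way ZIC2 was delivered, the meaning of vec or whether replicates were separate cultures. All p-values thus rest on the spread among these libraries alone, which may be technical.

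ZNF263 is a zinc finger transcription factor with a KRAB domain that binds G-rich repeats of GGA. ZIC2 is a zinc finger factor related to the GLI proteins, is abundant at enhancers of primed pluripotent cells and is needed for forebrain development. Primed stem cells are kept by NODAL or activin and by FGF signalling, whereas BMP signalling moves them towards mesoderm, trophoblast and amnion. Genes of the actin cytoskeleton are driven by SRF, which binds the CArG box in their promoters.

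Values are counts scaled to library size (CPM) of poly(A) RNA, and values in a series are replicates 1, 2 and 3. Totals were 17183577 to 20067161 counts in knockout with ZIC2 and 17175183 to 20703664 in wild type, and pairs of replicates within these groups differed by a chi-square of 1.42 to 3.03 per gene. Stem cell markers were high in both groups: LIN28A lay at 2282 to 2328 CPM with ZIC2 and 2124 to 2212 CPM in wild type, and DNMT3B at 2141 to 2303 and 2107 to 2210 CPM. The 6 stem cell markers summed to 5785 to 5858 CPM with ZIC2 and 5491 to 5550 CPM in wild type, and LIN28A and DNMT3B made up most of this. POU5F1 and TDGF1 also lay higher with ZIC2. SOX2 lay lower, at 367.4 to 370.2 CPM with ZIC2 and 373.4 to 391.8 CPM in wild type. NANOG overlapped, at 67.4 to 80.8 and 78.7 to 82.9 CPM. The tests of SOX2 and NANOG are given below. Of the 4 fibroblast or feeder markers, COL1A1 alone was measured above 0.3 CPM; COL3A1, LUM and DCN held 6, 0 and 6 counts over the 3 libraries with ZIC2. The 4 trophoblast or amnion markers summed to 6.96 to 8.35 CPM with ZIC2 and 5.09 to 5.38 CPM in wild type, with CDX2 at 3 counts and CGA at 1 count over the libraries with ZIC2. The 3 endoderm markers summed to 6.20 to 7.06 against 4.16 to 5.14 CPM, with SOX17 at 1 count. The 3 mesoderm markers summed to 1.46 to 2.32 against 1.21 to 1.62 CPM, with HAND1 at 3 counts. The 3 neural markers summed to 460.9 to 514.1 against 345.5 to 361.8 CPM, nearly all of it NES, while SOX1 held 9 counts. The part of these markers in the results below was not tested, and in bulk RNA a change in the number of cells of a type cannot be told apart from a change in RNA per cell.

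Of 15437 genes tested, 5804 (37.6%) were called at an adjusted p under 0.05 in edgeR's quasi-likelihood test, 3126 higher (20.3%) and 2678 lower (17.3%) with ZIC2 than in wild type. Most differences were small: the median size among called genes was 0.27 on the log2 scale, and 299 genes (1.94%) were called and over 2-fold higher against 71 (0.46%) called and over 2-fold lower. A test against a minimum fold of 1.5 called 256 genes (1.66%), 214 higher and 42 lower. The knockout without added ZIC2 gave 5951 calls against the same wild type libraries (38.6%), and adding ZIC2 to the knockout gave 1288 (8.34%), of which 771 (4.99%) were higher and 517 (3.35%) lower. These 3 comparisons share libraries, so only their own values are set side by side here. Replicates of wild type and of the knockout with ZIC2 did not overlap in 7300 tested genes (47.3%). The rises and falls ranked below were chosen among called genes without overlap and with at least 5 CPM in the higher group, ZIC2 set aside, so their separation from wild type is part of the choice. By that rule the rises were led by FAM109B, LAMB3, EPHB3 and PPP1R1B and the falls by ECHDC3, ZNF558 and NAP1L6.

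**Figure D1:**
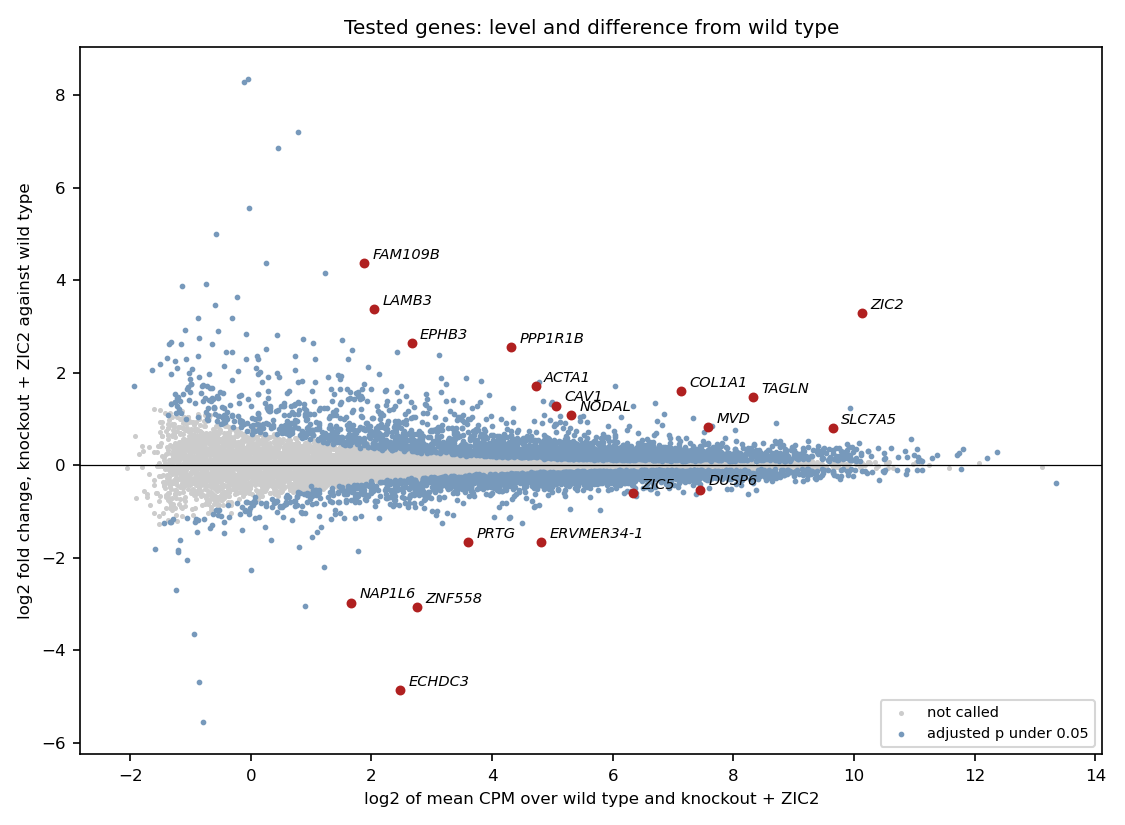
Each point is a tested gene, with the log2 of its mean CPM over the 6 libraries on the horizontal axis and the log2 fold change of knockout with ZIC2 against wild type on the vertical axis; blue points have an adjusted p under 0.05 and red points are labelled genes. ZIC2 stands alone among abundant genes at 3.29, and ECHDC3 is the lowest labelled gene at -4.87.

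The fold change also followed base composition. Tested genes were put into 5 equal groups by transcript GC content. The group with the lowest GC content had a median log2 fold change of -0.14, and that with the highest had a median of 0.17. Once GC content and length were corrected for within each library, the 5 medians lay between -0.03 and -0.01 and the calls numbered 4509 (29.2%; 2036 higher and 2473 lower). Of the genes called without the correction, 3313 were called in the same direction with it and 6 in the other. The share of counts on mitochondrial genes was 0.963 to 1.13% with ZIC2 and 1.36 to 1.40% in wild type. The ribosomal precursor RNA45S5 took 0.0791 to 0.176% with ZIC2 and 0.0471 to 0.0729% in wild type. Neither share overlapped between the groups; their part in the results was not tested.

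**Figure D2:**
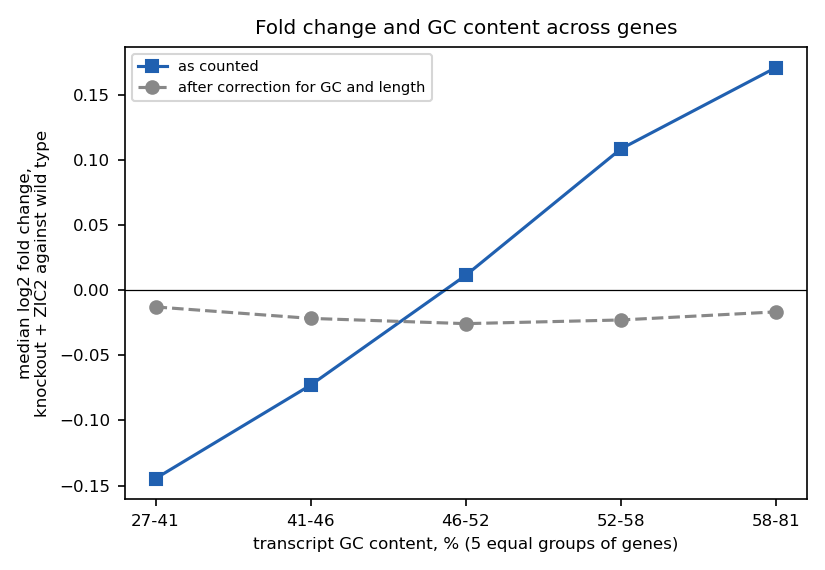
The median log2 fold change of knockout with ZIC2 against wild type is plotted for 5 equal groups of genes ordered by the GC content of their longest transcript, as counted (blue squares) and once corrected for GC content and length (grey circles). The uncorrected medians run from -0.14 in the lowest group to 0.17 in the highest, and the corrected medians lie just under 0.

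The knocked-out and the added gene come before all others. Counts of ZNF263 (hg19, chromosome 16, 3333487 to 3341459) came to 35.9, 30.1 and 30.8 CPM in the knockout with ZIC2 and to 40.7, 38.8 and 38.2 CPM in wild type, without overlap (log2 fold change -0.28 with SE 0.07, adjusted p = 0.00249). The knockout without added ZIC2 held 30.9, 31.1 and 31.2 CPM. Whether the remaining transcript can be translated is not visible in gene counts. ZIC2 (located on chromosome 13, 100634026 to 100639019) reached 2226, 2018 and 1878 CPM with its overexpression, against 212, 209 and 205 CPM in wild type (log2 fold change 3.29 with SE 0.05, adjusted p = 1.27e-23). The counts do not separate added from endogenous ZIC2 transcripts. Its relatives ZIC5 and ZIC1, which share the ZIC zinc fingers, were called lower than wild type. ZIC5, the neighbour of ZIC2 on chromosome 13, stood at 61, 64.1 and 67.6 against 97.2, 101 and 94.8 CPM (log2 fold change -0.61 with SE 0.05, adjusted p = 1.02e-09). ZIC1 was at 0.608, 0.276 and 0.82 against 1.44, 1.23 and 0.905 CPM (log2 fold change -1.05), levels near 1 CPM where few counts carry the difference. ZIC5 was also called lower in the knockout with ZIC2 than in the knockout without it, at -0.30 (adjusted p = 7.6e-05) on the log2 scale, so its gap to wild type was no smaller with ZIC2.

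The deepest falls by that rule were in genes that were already low in the knockout and stayed low with ZIC2. ECHDC3 (chromosome 10, 11784356 to 11806065), a mitochondrial enoyl-CoA hydratase family member, stood at 0.203, 0.607 and 0.293 CPM with ZIC2, 0.116, 0.0527 and 0.187 CPM in the knockout and 10.0, 10.8 and 11.5 CPM in wild type. Its pooled counts were 20 with ZIC2 and 617 in wild type, 29.7 times more in wild type after scaling (exact 95% interval 19.1 to 49.0 for counting error; log2 fold change -4.87 with SE 0.20, adjusted p = 5.21e-14). Every wild type library lay more than 10 times above every library with ZIC2. ZNF558 (chromosome 19, 8920252 to 8942980), a KRAB zinc finger gene, stood at 1.57, 1.44 and 1.29 with ZIC2, 1.16, 0.896 and 1.35 in the knockout and 10.4, 12.3 and 13.3 CPM in wild type (log2 fold change -3.06 with SE 0.15, adjusted p = 5.75e-13). NAP1L6 on the X chromosome stood at 0.405, 1.05 and 0.703 CPM with ZIC2, at 0.722, 0.632 and 0.653 in the knockout and at 5.95, 5.92 and 5.0 in wild type (log2 fold change -2.97 with SE 0.21, adjusted p = 2.94e-10). None of the 3 passed the test between the knockout with and without ZIC2, where adjusted p was 0.0642 for ECHDC3 (difference 1.56 with SE 0.51), 0.483 for ZNF558 (0.32 with SE 0.22) and 0.954 for NAP1L6 (0.06 with SE 0.30).

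The remaining 9 of the 12 largest falls were smaller, from -1.84 to -1.11 on the log2 scale. MLKL, the pore-forming protein of necroptosis, stood at 1.37, 1.82 and 1.29 CPM with ZIC2 against 5.14, 5.07 and 5.86 CPM in wild type. PRTG, the cell surface protein protogenin of early embryos, stood at 6.33, 5.13 and 6.03 against 16, 20.6 and 18.6 CPM (log2 fold change -1.66). In the knockout MLKL stood at 1.61, 1.37 and 1.77 CPM and PRTG at 5.73, 5.11 and 4.66 CPM. ERVMER34-1, an envelope gene of an endogenous retrovirus, fell further with ZIC2. It stood at 43.1, 41.4 and 43.5 CPM in wild type, 17.9, 17.4 and 16.4 in the knockout and 11.7, 14.6 and 14.4 with ZIC2. The last step was called (-0.36, adjusted p = 0.00417). SYT4, a synaptotagmin of secretory vesicles, fell in the same order and stood at 5.12, 4.53 and 6.44 CPM with ZIC2, at 9.27, 8.17 and 8.02 in the knockout and at 11.1, 13.8 and 13.1 in wild type (last step -0.69, adjusted p = 0.000755). ZNF788, PUS7L (a pseudouridine synthase), the meiotic genes MEIOC and TEX15, and the amino acid transporter SLC38A4 stood -1.25, -1.15, -1.15, -1.11 and -1.12 from wild type, and none of these 5 passed the test between the knockout with and without ZIC2. USP3, a deubiquitinase of histones, was not among these 12 and was named as 1 of the 6 largest falls in the knockout by the same filters. It was called closer to wild type with ZIC2, at 7.45, 6.24 and 6.09 CPM against 4.31, 4.11 and 5.13 in the knockout and 13.3, 14.5 and 14.1 in wild type (difference from the knockout 0.56, adjusted p = 0.00228). Its low level in the knockout is part of the choice, which favours a smaller distance with ZIC2.

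**Figure D3:**
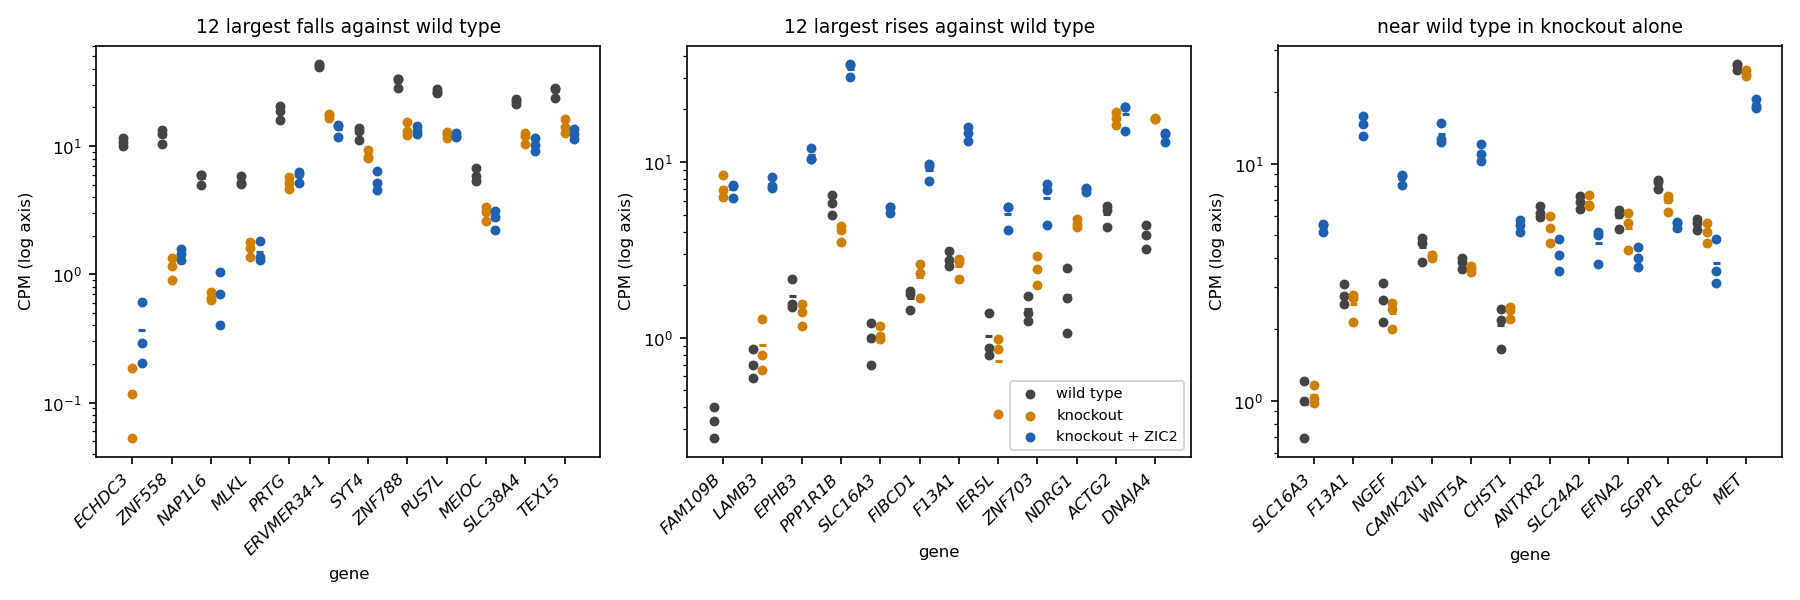
CPM values on a log axis are shown for each library (points) with the group mean (short line) in wild type, knockout and knockout with ZIC2, for the 12 largest falls (left), the 12 largest rises (middle) and genes that passed no test in the knockout alone (right). All genes shown were chosen without overlap between wild type and knockout with ZIC2; in the left panel the levels with ZIC2 run from ECHDC3 at 0.203 to 0.607 CPM up to ERVMER34-1 and ZNF788 near 13 CPM.

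Among the rises, FAM109B (chromosome 22, 42470255 to 42475442), which encodes an endosomal trafficking protein, was likewise already far from wild type in the knockout. It stood at 7.29, 7.45 and 6.27 CPM with ZIC2, 6.92, 8.48 and 6.34 in the knockout and 0.404, 0.267 and 0.333 in wild type (log2 fold change 4.37 with SE 0.23, adjusted p = 2.5e-12). The difference between the knockout groups was -0.03 (SE 0.12, adjusted p = 0.927). DNAJA4, a co-chaperone, stood at 13.1, 14.5 and 14.6 CPM with ZIC2 against 4.39, 3.2 and 3.86 CPM in wild type (log2 fold change 1.88 with SE 0.11, adjusted p = 2.48e-11). It was called lower than in the knockout, at 17.6, 17.5 and 18 CPM (-0.34, adjusted p = 0.0114). RGS9 and the noncoding RNA CYTOR were 1.64 and 1.76 above wild type, with no call between the knockout groups. CYTOR has a near-identical copy, so its counts are uncertain. These 4 genes, with ACTA1 and ANXA1 described below, were the 6 largest rises in the knockout by the same filters. Their high level in the knockout is thus part of the choice, which favours a smaller distance from wild type with ZIC2.

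Contractile genes stayed high. Of 15 tested members of the list of muscle actins and contractile SRF targets, 14 were called higher than wild type with ZIC2 and 0 lower, with a median of 0.48 beside 0.00 over all tested genes. List counts with ZIC2, here and below, stand beside 20.3% of all tested genes called higher and 17.3% called lower. Those shares were 13.2% and 16.0% with the GC and length correction. In the knockout the counts were also 14 and 0, with a median of 0.57. Knockout counts of the lists, here and below, stand beside 3095 of all 15437 tested genes called higher and 2856 called lower. In the comparison with ZIC2, 14 members stayed higher with the GC and length correction. Sequences are shown for the promoters of 3 muscle actins and of SRF, since a CArG box lay in 6 of the 13 promoters of this list that RefSeq gives (46.2%), against 312 of all 27305 (1.1%). The list was drawn up as SRF targets, so a high share is part of its choice and is no result of this comparison. Each is the 250 bases before the gene start in GRCh38.p14 from RefSeq, written 5′ to 3′ on the gene's strand, with each match in capitals. The CArG box is 10 bases long and was matched on both strands, which read alike for it. A match describes these letters and not a bound site.
ACTA1: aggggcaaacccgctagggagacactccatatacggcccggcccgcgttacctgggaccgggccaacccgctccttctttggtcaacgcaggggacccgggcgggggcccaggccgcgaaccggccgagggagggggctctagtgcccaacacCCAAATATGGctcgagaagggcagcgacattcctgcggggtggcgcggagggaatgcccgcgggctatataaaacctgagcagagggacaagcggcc
ACTC1: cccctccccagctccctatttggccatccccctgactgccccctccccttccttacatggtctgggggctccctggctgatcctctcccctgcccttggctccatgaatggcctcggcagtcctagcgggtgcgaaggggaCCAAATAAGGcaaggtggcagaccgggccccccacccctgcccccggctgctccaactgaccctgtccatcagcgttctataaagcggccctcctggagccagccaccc
ACTG2: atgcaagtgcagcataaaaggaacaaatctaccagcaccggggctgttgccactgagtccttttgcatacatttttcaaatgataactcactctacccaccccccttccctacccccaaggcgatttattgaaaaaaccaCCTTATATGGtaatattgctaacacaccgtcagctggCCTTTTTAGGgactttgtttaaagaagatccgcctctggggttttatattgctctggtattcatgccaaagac
SRF: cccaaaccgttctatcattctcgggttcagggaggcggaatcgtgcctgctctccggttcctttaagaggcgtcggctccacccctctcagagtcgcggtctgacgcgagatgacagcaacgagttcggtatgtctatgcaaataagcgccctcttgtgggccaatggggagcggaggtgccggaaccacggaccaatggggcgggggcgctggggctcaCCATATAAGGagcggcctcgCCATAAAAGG
The match of ACTA1 (chr1:229434095-229434344, minus strand) started at -97 from the gene start and that of ACTC1 (chr15:34795550-34795799, minus strand) at -109. ACTG2 (chr2:73892758-73893007, plus strand) had matches at -110 and -73, and SRF (chr6:43171019-43171268, plus strand) at -30 and -10. CNN2 and FLNA held the other matches, at -89 and -94.

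ACTA1, skeletal muscle actin, stood at 39.5, 41.1 and 41.4 CPM with ZIC2, 58.2, 67.9 and 66.9 in the knockout and 12.1, 10.2 and 14.6 in wild type (log2 fold change 1.71 with SE 0.09, adjusted p = 1.75e-12). The 3 groups did not overlap, and ACTA1 was called lower with ZIC2 than without it (-0.65, SE 0.07, adjusted p = 6.79e-07). The share of tested genes in which all 3 groups lie apart was not counted. ACTC1, cardiac muscle actin, followed the same order, at 157, 146 and 147 CPM with ZIC2, at 171, 215 and 196 in the knockout and at 61.5, 54.2 and 61.2 in wild type (log2 fold change 1.35 with SE 0.07, adjusted p = 1.15e-12), and against the knockout it gave -0.37 (adjusted p = 0.000296). ACTG2, smooth muscle actin of the gut, stood at 20.7, 20.6 and 15 CPM with ZIC2, at 16.2, 19.3 and 17.9 in the knockout and at 5.32, 4.27 and 5.62 in wild type (log2 fold change 1.89 with SE 0.13, adjusted p = 1.65e-10), with no call between the knockout groups (0.10, SE 0.10). TAGLN, which binds actin in smooth muscle, stood at 514, 459.5 and 438 CPM with ZIC2, at 436, 574 and 505 in the knockout and at 185, 157 and 169 in wild type (log2 fold change 1.46 with SE 0.07, adjusted p = 1.41e-12). CNN1, calponin, stood at 50.1, 43.6 and 43.5 against 18.8, 16.1 and 18.4 CPM (1.37). SRF itself was 0.35 above wild type, at 187, 191 and 181 against 146, 139 and 152 CPM. The broadly used cytoskeletal members MYL9, TPM1, TPM2, CNN2, CALD1, MYH9, FLNA and VCL lay 0.30 to 0.85 above wild type. ACTA2 was the member not called (-0.22, adjusted p = 0.597). The muscle actins have near-identical coding sequences, and counting of uniquely aligned reads lowers and can shift their counts.

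Genes activated by YAP and the caveolins and annexins, which sit at the membrane and its caveolae, gave 11 higher and 2 lower of 15 tested, with a median of 0.70 (0.89 in the knockout). ANXA1, annexin A1, stood at 16.2, 13.3 and 14.2 CPM with ZIC2, 17.3, 23 and 23 in the knockout and 4.22, 3.41 and 5.19 in wild type (log2 fold change 1.76 with SE 0.15, adjusted p = 4.18e-09). CAV1, the coat protein of caveolae, stood at 45.8, 48.1 and 48.1 CPM with ZIC2, at 49.7, 59.4 and 60.1 in the knockout and at 20.7, 17.5 and 19.9 in wild type (log2 fold change 1.29 with SE 0.08, adjusted p = 1.71e-11). CYR61, a secreted YAP target, stood at 132, 129.5 and 128 CPM with ZIC2, at 156, 175 and 177 in the knockout and at 81.4, 79.6 and 78.8 in wild type (log2 fold change 0.70 with SE 0.05, adjusted p = 1.26e-10). In these 3 genes every library with ZIC2 lay above wild type and below the knockout, an order not counted over all tested genes. Each was called lower than the knockout (-0.50, -0.24 and -0.38, with adjusted p = 0.00337, 0.021 and 1.95e-06). ANXA2 stood at 137, 143 and 139 CPM with ZIC2, at 149, 175 and 170.4 in the knockout and at 75.9, 72.5 and 68.8 in wild type (log2 fold change 0.95 with SE 0.05, adjusted p = 6.28e-12), and ANKRD1, CAV2, ANXA3, S100A10, AMOTL2, CTGF and AJUBA were 0.24 to 1.45 above wild type. TEAD1 and S100A11 were lower (-0.22 and -0.18). Of the immediate early genes, transient targets of growth factor signalling, 8 of 13 were higher and 0 lower (median 0.60), among them JUN at 46, 40.8 and 39.4 against 22.6, 22.7 and 24.4 CPM (0.86). EGR1 stood at 18.6, 16.2 and 14.6 with ZIC2, 7.43, 8.06 and 6.34 in the knockout and 9.3, 8.11 and 7.67 CPM in wild type, and was called higher than both (against the knockout 1.18, adjusted p = 1.31e-08).

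Several genes of the NODAL pathway, among them the ligand and its feedback inhibitors, were above wild type and below the knockout. Of 17 tested members, 9 were higher and 1 lower with ZIC2 and 7 were not called (median 0.17), where the knockout had 11 higher and 2 lower (median 0.34). With the GC and length correction 7 were higher and 2 lower. The ligand NODAL (chromosome 10, 72191692 to 72207704) stood at 51.9, 59.7 and 50.6 CPM with ZIC2, 66.1, 78.7 and 62.4 in the knockout and 25.2, 25.7 and 25.4 in wild type (log2 fold change 1.09 with SE 0.08, adjusted p = 3.23e-10), and against the knockout it gave -0.35 (adjusted p = 0.00127). All 3 libraries with ZIC2 lay above every wild type library and below every knockout library, an order whose share over all tested genes was not counted. The secreted inhibitor CER1 stood at 14.9, 13.7 and 18 CPM with ZIC2, at 24.6, 25.7 and 25.2 in the knockout and at 6.76, 7.25 and 7.95 in wild type (log2 fold change 1.08 with SE 0.10, adjusted p = 2.64e-08; against the knockout -0.69). The feedback inhibitors LEFTY1 and LEFTY2, close paralogs whose reads may be split, were 0.54 and 0.42 above wild type. They lay -0.50 and -0.75 from the knockout, and all 4 differences were called. LEFTY2 came close to wild type at 13.6, 14.4 and 17.2 against 12.2, 11 and 10.6 CPM. Of the signal transducers, SMAD3 and SMAD7 were higher by 0.17 and 0.30 and SMAD4 lower (-0.20), while the receptors ACVR1B, ACVR2A and ACVR2B gave -0.01, -0.10 and -0.12 and were not called.

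**Figure D4:**
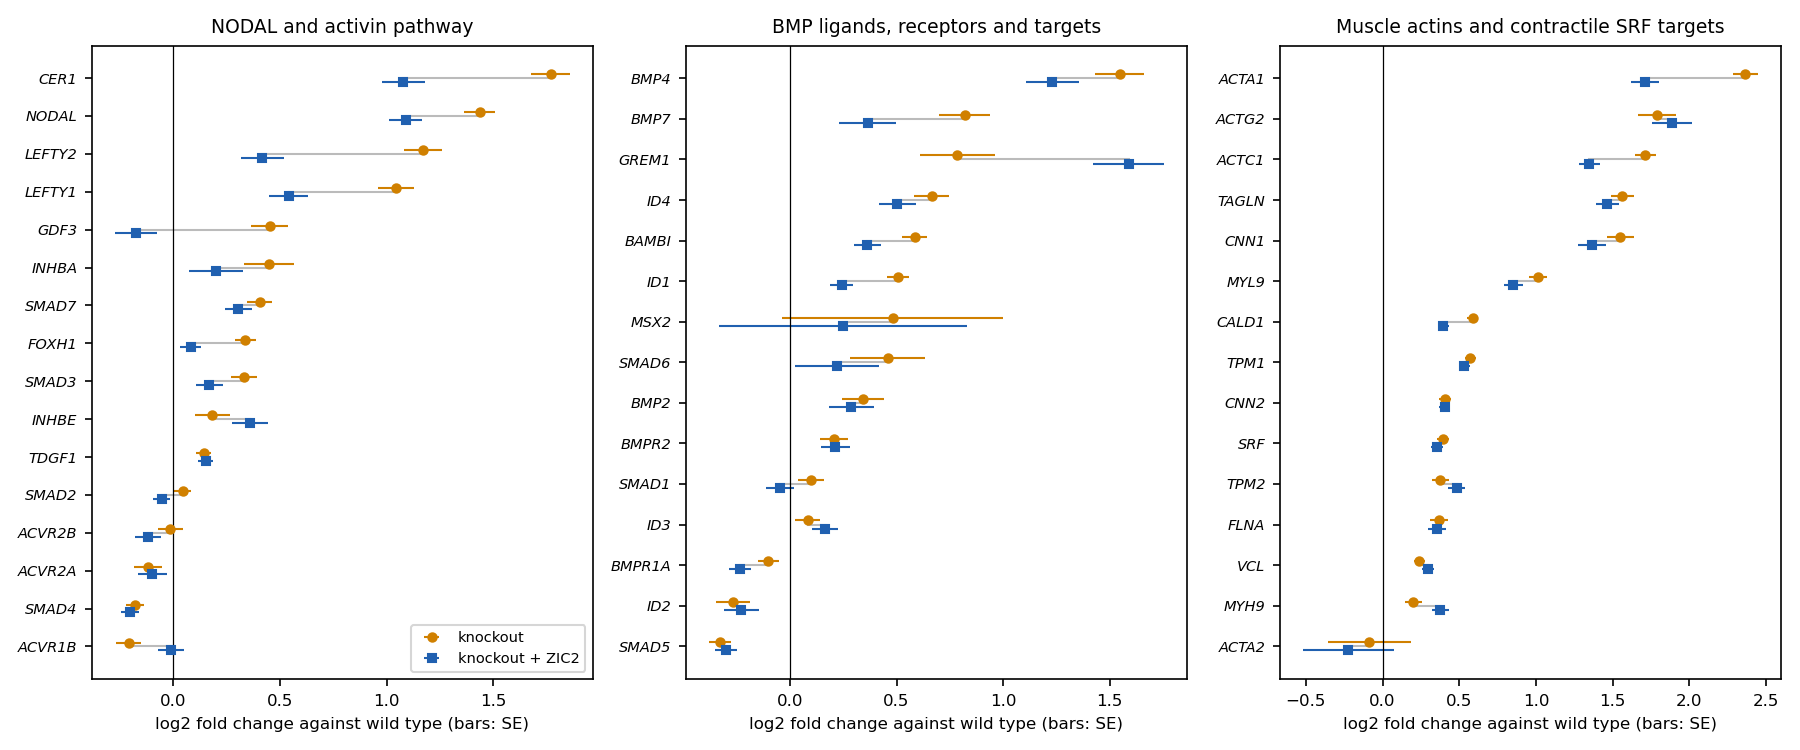
Log2 fold changes against wild type with their SE are drawn for tested members of 3 lists (1 member is not shown), in the knockout (orange circles) and in the knockout with ZIC2 (blue squares), both set against the same 3 wild type libraries. NODAL moves from 1.44 to 1.09 and CER1 from 1.77 to 1.08, while GREM1 moves the other way, from 0.79 to 1.59, and ACTG2 lies at 1.79 and 1.89.

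BMP genes gave 9 higher and 3 lower of 15 tested (median 0.24; 9 and 2 in the knockout, median 0.46), and after the GC and length correction 5 were higher and 3 lower. The ligand BMP4 stood at 11.4, 11.6 and 9.43 CPM with ZIC2, 12.1, 15.5 and 13.8 in the knockout and 4.68, 4.53 and 4.67 in wild type (log2 fold change 1.23 with SE 0.12, adjusted p = 8.66e-08). The difference from the knockout was -0.32 (adjusted p = 0.049). GREM1, a secreted BMP antagonist, rose in a second step: 1.39, 1.76 and 1.95 CPM in wild type, 2.77, 3.64 and 2.66 in the knockout and 5.12, 4.97 and 5.45 with ZIC2 (log2 fold change 1.59 with SE 0.17, adjusted p = 1.54e-07), and against the knockout it gave 0.80 (adjusted p = 0.000418). Ligand and antagonist were thus both above wild type with ZIC2, and the antagonist more so than without it. Of the target genes, ID4, ID1 and ID3 were higher (0.50, 0.24 and 0.16) and ID2 lower (-0.23), and the receptors BMPR2 and BMPR1A were 0.21 and -0.24 from wild type.

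A further set of genes moved away from wild type mainly once ZIC2 was present. LAMB3 (chromosome 1, 209788218 to 209825820), a chain of the epithelial laminin, stood at 7.09, 7.34 and 8.2 CPM with ZIC2, 1.28, 0.79 and 0.653 in the knockout and 0.693, 0.587 and 0.857 in wild type (log2 fold change 3.38 with SE 0.25, adjusted p = 4.73e-10). EPHB3, an ephrin receptor, stood at 12, 10.4 and 10.4 CPM with ZIC2, at 1.56, 1.16 and 1.4 in the knockout and at 1.56, 1.49 and 2.14 in wild type (log2 fold change 2.64 with SE 0.16, adjusted p = 2.09e-11). PPP1R1B, an inhibitor of protein phosphatase, stood at 35.9, 36.2 and 30.4 CPM with ZIC2, at 3.49, 4.32 and 4.1 in the knockout and at 4.97, 5.81 and 6.48 in wild type (log2 fold change 2.56 with SE 0.10, adjusted p = 1.22e-14). In these 3 genes the libraries with ZIC2 lay far above the other 6, and the difference from the knockout was 2.91, 2.95 and 3.14 (adjusted p = 1.38e-09, 3.69e-12 and 3.07e-16). PPP1R1B was called lower than wild type in the knockout alone (-0.58, adjusted p = 0.00138), so with ZIC2 it ended on the opposite side. FIBCD1, IER5L, ZNF703 and NDRG1 completed the 12 largest rises at 2.44, 2.29, 2.13 and 1.98; ZNF703 and NDRG1 were also higher in the knockout alone (0.71 and 1.34).

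Genes within 0.25 of wild type and not called in the knockout alone, yet called with ZIC2, were examined as a class by that rule, so their position in the knockout is part of the choice. The monocarboxylate transporter SLC16A3 stood at 5.57, 5.52 and 5.15 CPM with ZIC2 and 1.21, 0.693 and 1.0 in wild type (log2 fold change 2.48 with SE 0.20, adjusted p = 3.07e-09). The transglutaminase subunit F13A1 stood at 15.9, 14.7 and 13.1 and 2.77, 2.56 and 3.1 CPM (log2 fold change 2.37 with SE 0.13, adjusted p = 6.04e-12). WNT5A, a ligand of noncanonical WNT signalling, stood at 12.1, 11 and 10.2 and 3.58, 4.0 and 3.86 CPM (log2 fold change 1.54 with SE 0.11, adjusted p = 4.98e-10). The rule for this class also required groups without overlap. NGEF, CAMK2N1 and CHST1 were 1.71, 1.58 and 1.38 above wild type. The falls of this class were shallower, from -0.60 for ANTXR2, the anthrax toxin receptor, to -0.53 for MET, the receptor of hepatocyte growth factor, which stood at 17.5, 17.2 and 18.7 against 24.7, 26.2 and 25.9 CPM (log2 fold change -0.53 with SE 0.06, adjusted p = 7.07e-07). SLC24A2, EFNA2, SGPP1 and LRRC8C lay between them (-0.57, -0.56, -0.56 and -0.54). The call of LRRC8C was lost with the GC and length correction (adjusted p = 0.06) and without replicate 1 of the knockout with ZIC2 (adjusted p = 0.0573).

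Eph receptors and ephrins, paired cell surface signals that sort cells, gave 6 higher and 3 lower of 16 (median 0.06; 4 and 4 in the knockout). The ligand EFNB1 stood at 49, 40.9 and 37.4 CPM with ZIC2, 7.04, 8.11 and 7.41 in the knockout and 11.7, 11.8 and 13 in wild type (log2 fold change 1.80 with SE 0.09, adjusted p = 5.75e-13). Like PPP1R1B it was below wild type in the knockout alone (-0.72, adjusted p = 1.7e-05). EPHB1 and EFNB2 were higher (1.04 and 0.59), and EPHA3, EPHA4 and EPHA7 lower (-1.03, -0.37 and -0.28). Among called members, B-class genes thus supplied 5 of the 6 rises, EPHB4 at 0.27 among them, and EPHA2 (0.67) the other. The 3 falls were A-class receptors. A further 7 members were not called, and with the GC and length correction 6 were higher and 5 lower. WNT genes gave 8 higher and 3 lower of 15 (median 0.21; 6 and 3 in the knockout). WNT3A held 47 pooled counts with ZIC2, 4 in the knockout and 3 in wild type, a scaled ratio to wild type of 16.3 (exact 95% interval 5.24 to 81.7, counting error only). The WNT effector LEF1 stood at 1.67, 1.66 and 2.28 against 0.578, 1.01 and 0.857 CPM (1.17). The abundant secreted antagonist SFRP1 stood at 804, 756 and 794 CPM with ZIC2, at 606, 558 and 609 in the knockout and at 944, 971 and 957 in wild type. It was lower than wild type (-0.29) but higher than the knockout (0.41, adjusted p = 2.77e-08).

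Matrix and adhesion genes were mixed in direction. COL1A1, the main fibrillar collagen chain, rose in a second step: 71.1, 66.3 and 70.3 CPM in wild type, 103, 116 and 112 in the knockout and 235, 201 and 196 with ZIC2 (log2 fold change 1.61 with SE 0.06, adjusted p = 3.99e-15), and against the knockout it gave 0.94 (adjusted p = 4.49e-11). Its partner chain COL1A2 stood at 121, 112 and 109 against 87.2, 81.9 and 78.8 CPM (0.46). The matrix protein SPARC stood at 459, 454 and 456 against 344, 332 and 345 CPM (0.42), while COL3A1, LUM and DCN stayed at or near 0 counts as given above. The fibroblast and feeder-like list gave 8 higher and 1 lower of 12 (median 0.35), the collagens 9 and 1 of 18 (median 0.17), and laminins and integrins 7 and 4 of 18 (median 0.12). Without wild type replicate 3, 4 laminins and integrins were higher. COL6A3 stood at 9.52, 8.11 and 8.61 with ZIC2, 5.59, 4.58 and 5.46 in the knockout and 2.95, 3.25 and 3.1 CPM in wild type (adjusted p = 4.89e-08), and COL14A1 was lower (-0.53). Serpins, plasminogen activators and proteases gave 13 higher and 0 lower of 17 (median 0.30; 11 and 2 in the knockout). The tissue plasminogen activator PLAT and, separately, the urokinase receptor PLAUR were higher with ZIC2 (0.63 and 0.77), where the knockout gave -0.24 and -0.18. SERPINH1, the collagen chaperone, and MMP15 were 0.30 and 0.38 above wild type. SERPINB9 and MMP9 went the other way against the knockout: SERPINB9 stood at 29.8, 37.8 and 35.7 with ZIC2, 61.1, 59.1 and 56.8 in the knockout and 31.2, 27 and 26.2 CPM in wild type. MMP9 stood at 7.45, 7.62 and 8.67 CPM with ZIC2, at 12.4, 13.9 and 12.3 in the knockout and at 8.61, 6.77 and 7.62 in wild type and was not called against wild type (0.04, SE 0.11, adjusted p = 0.784).

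Regulators of the epithelial to mesenchymal transition and cadherins gave 10 higher and 4 lower of 18 (median 0.24; 7 and 4 in the knockout), and members of opposite roles rose together. The repressor SNAI2 stood at 3.55, 5.08 and 5.21 CPM with ZIC2, 1.54, 1.26 and 1.31 in the knockout and 1.04, 1.6 and 1.67 in wild type (log2 fold change 1.65 with SE 0.20, adjusted p = 8.82e-07). The epithelial cadherin CDH1, which SNAI2 is known to repress, was also higher, at 347, 327 and 325 CPM with ZIC2, 287, 262 and 273 in the knockout and 261, 269 and 261 in wild type (log2 fold change 0.34 with SE 0.04, adjusted p = 5.07e-07). The tight junction gene CLDN6 stood at 789.7, 757 and 734 against 643, 592 and 617 CPM (0.30). The intermediate filament VIM was 0.38 above wild type, and ZEB2 and EPCAM were lower (-0.90 and -0.28). Neural crest genes gave 3 higher and 0 lower of 7 (median 0.43; 2 and 0 in the knockout): SNAI2, SOX9 and NGFR. SOX9 stood at 13.2, 13.6 and 13.4 against 8.96, 8.59 and 8.48 CPM (0.63) and NGFR at 17.4, 16.6 and 15 against 5.43, 7.31 and 6.19 CPM (1.37). Early neural and neuronal markers gave 5 higher and 4 lower of 17 (median 0.11; 4 and 5 in the knockout). STMN2, a tubulin regulator of neurons, and CRABP1, a retinoic acid binding protein, were higher (1.81 and 1.01). CRABP1 stood at 229.9, 216 and 199 with ZIC2, 121, 138 and 132 in the knockout and 115, 102 and 102 CPM in wild type. The forebrain factors SIX3 and HESX1 were lower (-1.88 and -0.59). The microtubule protein MAP2 was also lower, at 31, 24.9 and 29.6 with ZIC2, 17.6, 18.5 and 21.9 in the knockout and 39.2, 49.3 and 47.1 CPM in wild type (-0.67).

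Pluripotency genes differed in direction and size. SOX2 stood at 369.5, 368 and 370.4 CPM with ZIC2 and 392, 374 and 375 in wild type and was not called (log2 fold change -0.04 with SE 0.03, adjusted p = 0.373), although it was called lower with the GC and length correction (-0.10, adjusted p = 0.00573). NANOG stood at 67.4, 80.9 and 75.9 against 82.9, 78.8 and 78.7 CPM (log2 fold change -0.10 with SE 0.05, adjusted p = 0.152), and was called without replicate 2 of the knockout with ZIC2 (-0.16, adjusted p = 0.0295). POU5F1 stood at 69.9, 91.6 and 77.1 against 64.2, 65.2 and 59.1 CPM (log2 fold change 0.34 with SE 0.09, adjusted p = 0.00307), but this count is uncertain: the entry spans several contigs and the gene has near-identical copies. The core list gave 8 higher and 6 lower of 23 (median 0.06; 11 and 4 in the knockout). It gave 3 higher and 8 lower after the GC and length correction. The balance of all tested genes turned as well, from 20.3% higher and 17.3% lower to 13.2% and 16.0%. Genes of primed and formative pluripotency gave 4 higher and 10 lower of 20 (median -0.08), and the counts were also 4 and 10 in the knockout. ZIC2 is itself among the 4. DUSP6, a phosphatase in the feedback on ERK, stood at 141, 146 and 144 CPM with ZIC2, 124, 125 and 119 in the knockout and 202, 211 and 208 in wild type (log2 fold change -0.53 with SE 0.04, adjusted p = 4.02e-10). PTPRZ1, a receptor phosphatase, stood at 229.8, 227 and 258 CPM with ZIC2, at 243, 195 and 221 in the knockout and at 342, 386 and 375 in wild type (log2 fold change -0.63 with SE 0.06, adjusted p = 3.93e-08). Of 9 tested naive genes 3 were higher and 0 lower, where the knockout had 5. KLF4 stood at 4.0, 4.19 and 3.98 with ZIC2, 5.64, 6.96 and 6.81 in the knockout and 2.02, 2.13 and 2.29 CPM in wild type (log2 fold change 0.91 with SE 0.16, adjusted p = 0.000102). TFAP2C stood at 6.38, 5.63 and 6.68 CPM with ZIC2, at 8.55, 8.8 and 8.72 in the knockout and at 3.06, 2.24 and 3.48 in wild type (log2 fold change 1.08 with SE 0.15, adjusted p = 5.06e-06). Both were called closer to wild type with ZIC2 than without (-0.64 and -0.48; adjusted p = 0.00117 and 0.00819), yet no library of either reached the wild type range.

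Small, broad shifts marked metabolism and stress. Cholesterol synthesis gave 19 higher and 0 lower of 22 (median 0.24; 20 and 0 in the knockout), and 17 were higher after the GC and length correction. MVD, of the mevalonate part, stood at 256, 249 and 232 CPM with ZIC2, 229, 256 and 224 in the knockout and 139, 134 and 144 in wild type (log2 fold change 0.82 with SE 0.05, adjusted p = 1.71e-11). LSS, which closes the sterol rings, stood at 388, 371 and 364 CPM with ZIC2, at 386, 377 and 377 in the knockout and at 274, 275 and 281 in wild type (log2 fold change 0.44 with SE 0.03, adjusted p = 1.63e-09). HMGCS1, at the entry of the pathway, stood at 958, 999.7 and 981 against 781, 786 and 800.2 CPM (log2 fold change 0.31 with SE 0.03, adjusted p = 8.7e-08). These 3 were the members with the smallest adjusted p, and none was called between the knockout groups (0.06, -0.02 and 0.10). The sterol response element TCACNCCAC, sought on both strands, lay in 1 of the 17 promoters found for this list (5.9%), at -133 in SREBF2, against 0.9% of all promoters. Targets of ATF4, the factor of the amino acid and unfolded protein stress response, gave 15 higher and 0 lower of 20 (median 0.29; 13 and 0 in the knockout, median 0.14). The amino acid transporter SLC7A5 stood at 1091, 988 and 994 CPM with ZIC2, 913, 943 and 943 in the knockout and 587, 570.0 and 595 in wild type (log2 fold change 0.81 with SE 0.04, adjusted p = 2.17e-13). Its heavy chain partner SLC3A2 stood at 547, 509.6 and 490.3 against 377, 345 and 354 CPM (0.52). DDIT4, an inhibitor of mTOR signalling, rose in a second step with ZIC2, at 41.2, 40.6 and 35.8 CPM with ZIC2, at 25.2, 26.8 and 28.4 in the knockout and at 19.2, 17.1 and 19.5 in wild type (log2 fold change 1.08 with SE 0.07, adjusted p = 1.42e-10), and against the knockout it gave 0.56 (adjusted p = 2.66e-06). ATF4 itself was not called (0.08, adjusted p = 0.0826).

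Ribosomal protein genes gave 20 higher and 0 lower of 27 (median 0.17; 21 and 0 in the knockout), but 7 higher and 4 lower after the GC and length correction. Many have processed copies that share reads. Oxidative phosphorylation went from 11 higher and 2 lower of 24 (median 0.13) to 5 and 2 with that correction, and the higher count ran from 5 to 12 when 1 library was left out (lowest without wild type replicates 2 or 3 or replicate 1 with ZIC2). Glycolysis and hypoxia genes gave 13 higher and 4 lower of 23 (median 0.14), p53 targets 11 and 1 of 21 (median 0.12) and genes of DNA replication and mitosis 8 and 10 of 26 (median -0.02). Among the p53 targets GDF15, a stress cytokine, stood at 12, 10.3 and 9.49 with ZIC2, 4.1, 6.11 and 5.6 in the knockout and 4.68, 3.73 and 4.38 CPM in wild type (1.32). CDKN1A was 0.66 above wild type. CCND1, cyclin D1, stood at 149.7, 148 and 139 CPM with ZIC2, at 119.9, 114 and 107 in the knockout and at 82.2, 78 and 79.9 in wild type (log2 fold change 0.86 with SE 0.05, adjusted p = 2.6e-12). The proliferation genes TOP2A and MKI67 were lower (-0.35 and -0.32).

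**Figure D5:**
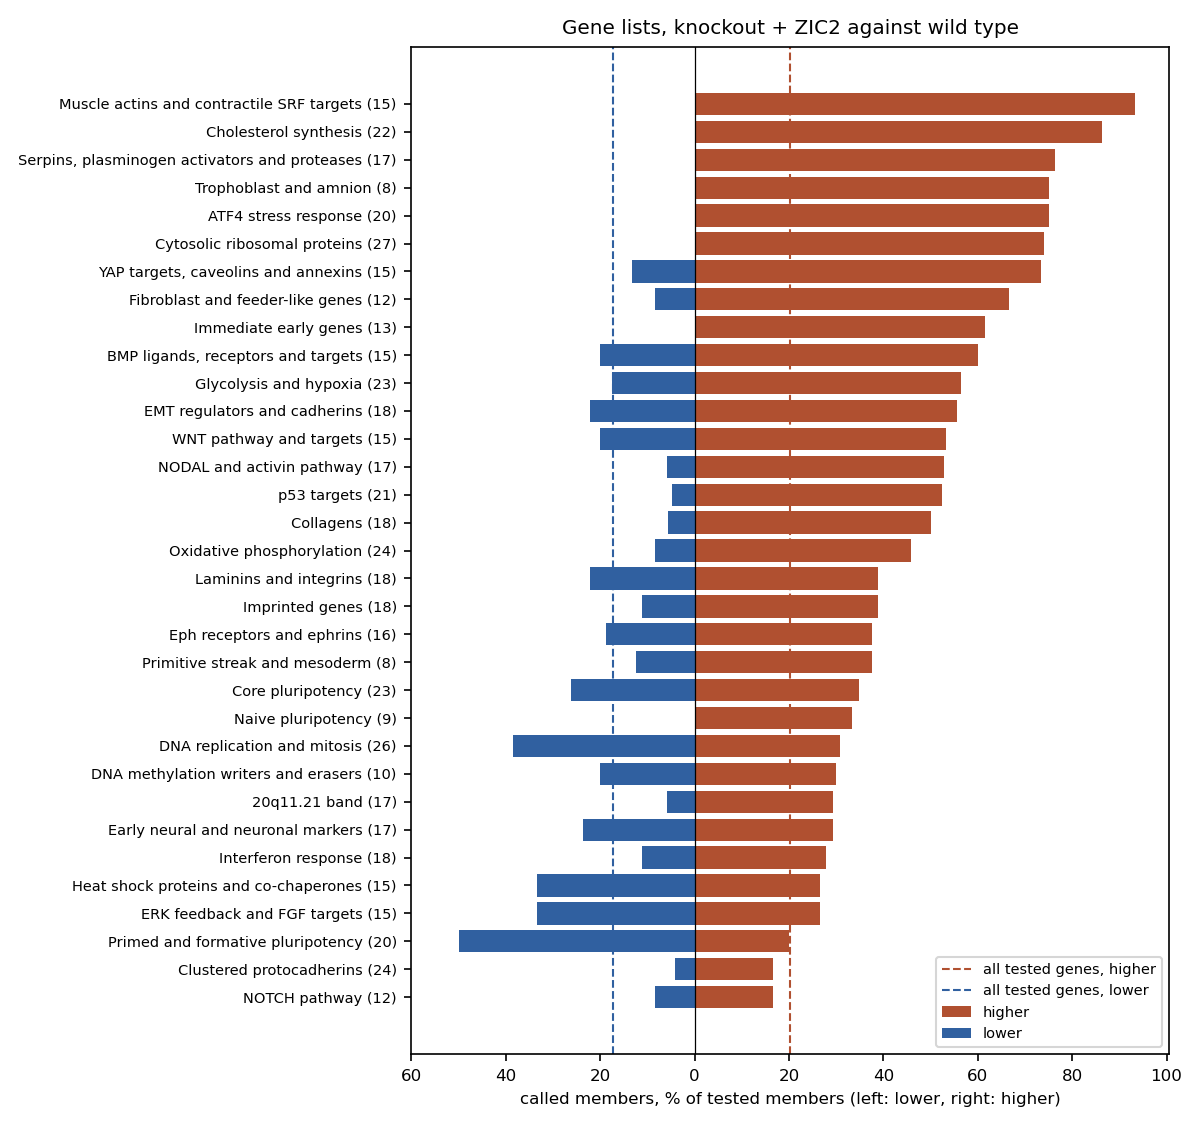
For each gene list with at least 8 tested members (number in brackets), bars give the percent of members called higher (right) and lower (left) than wild type in the knockout with ZIC2, and dashed lines give the same for all tested genes (20.3% and 17.3%). Contractile SRF targets (14 of 15) and cholesterol synthesis (19 of 22) have the longest bars on the high side, and primed and formative pluripotency (10 of 20) on the low side.

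The other lists were as follows. FGF and ERK feedback genes gave 4 higher and 5 lower of 15 (median -0.05). The ligand FGF8 stood at 4.26, 6.18 and 5.8 with ZIC2, 7.41, 7.9 and 7.97 in the knockout and 2.72, 2.45 and 2.81 CPM in wild type (1.01). NOTCH genes gave 2 higher and 1 lower of 12 (median 0.04), primitive streak and mesoderm 3 and 1 of 8 (median 0.56), endoderm 4 and 0 of 4 (median 0.63, CER1 among them) and trophoblast and amnion 6 and 0 of 8 (median 0.54). In the trophoblast and amnion list, GATA2 stood at 1.87, 2.48 and 3.1 against 0.867, 1.01 and 0.953 CPM (1.38) and GATA3 at 0.861, 1.05 and 0.351 against 0.231, 0.32 and 0.333 CPM (1.34), levels near 1 CPM. Heat shock genes gave 4 higher and 5 lower of 15 (median 0.04). The counts were, for DNA methylation writers and erasers 3 and 2 of 10 (median 0.05, with TET1 lower at -0.44), interferon response genes 5 and 2 of 18 (median 0.05) and clustered protocadherins 4 and 1 of 24 (median 0.01). Metallothioneins and zinc handling gave 4 and 2 of 7 (median 0.39): MT1X stood at 10.6, 12.5 and 10.0 with ZIC2, 13.1, 15.4 and 16.2 in the knockout and 4.39, 4.69 and 3.29 CPM in wild type (1.43), though metallothioneins share near-identical sequence. Imprinted genes gave 7 and 2 of 18 (median 0.02). The growth inhibitor CDKN1C stood at 23.9, 21.4 and 20.8 with ZIC2, 14.6, 18.2 and 18.6 in the knockout and 6.53, 5.97 and 6.29 CPM in wild type (log2 fold change 1.82 with SE 0.11, adjusted p = 1.16e-11). DLK1 was lower (-1.05). Of 17 genes in a band of chromosome 20 that is often gained in cultured stem cells, 5 were higher and 1 lower. Their median was 0.014, beside 0.004 over all tested genes.

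Promoter letters of the genes named by rule were also compared with all RefSeq promoters of the same length. The letters GGAGGAGG, a short form of the ZNF263 motif, lay on either strand in 10 of the 49 promoters found (20.4%), against 9.0% of all 27305 and 11.6% of the 11328 found for tested genes. ZIC2, ZIC5 and SOX2, which the rule takes by name, are among the 10. The letters lay in 1 of 8 promoters of the largest rises and 2 of 8 of the largest falls. Median GC content was 68.4% in the named promoters, 58.0% in all and 65.2% in those of tested genes. Its part in these shares was not tested. The ZIC letters CAGCAGG lay in 1 of 49 (2.0%), against 8.4% of all. The promoter of ECHDC3 (chr10:11742132-11742381, plus strand, GRCh38.p14) is shown because this gene fell furthest among those named; it held 28 CpG pairs and neither set of letters, so no base is in capitals. No match says only that these letters are not in this window.
ECHDC3: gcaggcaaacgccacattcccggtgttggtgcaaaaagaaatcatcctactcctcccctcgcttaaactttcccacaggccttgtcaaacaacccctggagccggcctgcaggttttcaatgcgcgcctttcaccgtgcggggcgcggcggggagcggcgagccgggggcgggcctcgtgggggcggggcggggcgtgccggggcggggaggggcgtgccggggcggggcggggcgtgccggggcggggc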

How the data were processed

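Poly(A) RNA of 12 libraries was measured by RNA-seq, 3 each of wild type, knockout, knockout with ZIC2 and ZNF263 overexpression, grouped by their labels. The authors deposited unnormalized whole-number counts per gene, from uniquely aligned reads per the file headers. The submitters' processing notes list STAR, featureCounts, DESeq2 and hg19 and no settings. Per the labels' protocols the kit marks no strand, so overlapping genes on opposite strands cannot be told apart.

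Of 27130 genes, 3461 had no count and 15437 passed filterByExpr. edgeR 4.0.16 (R 4.3.3) fitted the quasi-likelihood model to all 12 libraries with group as the only term, TMM scaling and Benjamini-Hochberg adjustment over all tested genes, with 8 residual degrees of freedom. Genes with adjusted p under 0.05 are called. CPM values use the TMM factors. Exact intervals are at 95% and cover counting error only. Tests were two-sided.

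In simulated counts for this comparison (15118 genes), 54% of genes changed 1.25-fold were called, 84% at 1.5-fold, 96% at 2-fold and 100% at 4-fold, with 12 false calls. Alternatives were DESeq2 1.42.0 and its size factors, no filter, only the 6 libraries, leaving out each library or the deepest (43464609 counts), a replicate block, a correction for GC content and length (spline of 5 df within each library; 95.2% of tested genes had a value) and a minimum fold of 1.5.

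The members, the 37 gene lists and the rules were chosen with earlier results of these data known. The rule takes ZNF263, ZIC2, ZIC5, POU5F1, SOX2 and NANOG. Beside these it takes 12 rises and 12 falls, the largest of called genes whose higher group averages 5 CPM or more, whose replicates do not overlap and whose symbol is not that of a clone or locus (ZIC2 set aside), and likewise 6 of each in the knockout. It adds 6 of each among genes called with ZIC2 but, in the knockout, not called and under 0.25 in size. Lastly, the 8 lists with the largest called share, of those with at least 8 tested members, give up to 3 called members each, by adjusted p. Y-linked genes were left out, and a few other genes are not reported here. Other list members were chosen after their values were seen.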

Additional observations from a re-analysis of the deposited data

How the results depend on the processing

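The 3126 higher and 2678 lower calls became 3009 and 2802 with DESeq2 size factors, 2994 and 2932 without the filter, 3091 and 2902 with only the 6 libraries, 3121 and 2937 without knockout replicate 1, and 2645 and 2386 in DESeq2. Leaving out 1 library of the 6 gave 2424 to 2944 higher and 2045 to 2588 lower. The minimum fold of 1.5 left 214 and 42. The GC and length correction gave 2036 higher and 2473 lower, and 2017 and 2460 together with the replicate block. The block alone gave 3072 and 2619. Same-numbered libraries of wild type and knockout with ZIC2 deviated with correlations of -0.02 to 0.01 over all tested genes, so no pairing by number was visible. A pairing with a small effect or in few genes would not show in these values. Of 69 genes that the naming rule takes 67 were called and 46 were called in the same direction in every alternative. None of the 69 changed direction. The alternatives include the minimum fold of 1.5, under which a small difference loses its call by its size alone. Calls lost to the other alternatives were not counted apart, and their cause was not tested.

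With the GC and length correction, higher members were 3 in core pluripotency, 5 in BMP, 6 in p53 targets, 7 in ribosomal proteins, 5 in oxidative phosphorylation, 4 in replication and mitosis, 2 in interferon response and 1 in the chromosome 20 band. Lower members were 2 in NODAL, fibroblast, collagens, p53 targets and the band, 1 in immediate early, EMT, ATF4 and serpins, 3 in NOTCH and protocadherins, 4 in ribosomal proteins and 5 in Eph and interferon response. With 1 library left out, higher members ran from 2 to 4 in primed pluripotency, endoderm and heat shock, 4 to 6 in laminins and integrins, 5 to 12 in oxidative phosphorylation, 3 to 4 in interferon response and 3 to 5 in the band. Lower members ran from 0 to 1 in immediate early and NOTCH, 1 to 2 in YAP and protocadherins, 2 to 4 in early neural and laminins and integrins, 2 to 3 in EMT and 3 to 5 in heat shock. At this depth 84% of simulated 1.5-fold changes were called, so smaller differences may be missed.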

Other observations

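A few called genes were near silent in wild type or in the knockout with ZIC2 and counted in the other, at levels too low for the rule that named genes. They were chosen after their values were seen, as called genes with at most 10 pooled counts in one group and at least 100 in the other, and 6 genes met this, all of them higher with ZIC2. ZNF596 (chromosome 8, 182137 to 197340), a zinc finger gene, had 0 counts in wild type, 161 in the knockout and 105 with ZIC2, at least 36.3-fold higher with ZIC2 than the 3 counts that 0 observed counts over the group allow. Its neighbour RPL23AP53 (chromosome 8, 158345 to 182318) had 2, 164 and 106 counts in the same order, a scaled ratio of 55.0 to wild type (exact 95% interval 14.9 to 460, counting error only). The 2 genes overlap by their ends in the deposited coordinates, so reads there cannot be assigned to either. LOC644554 on chromosome 19 had 0, 151 and 101 counts, at least 35.0-fold higher with ZIC2, and the pseudogene HSD17B7P2 on chromosome 10 had 1, 243 and 188 counts. None of these 4 was called between the knockout groups (adjusted p = 0.991, 0.964, 0.971 and 0.535).

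The other 2 had few counts in the knockout as well. GH1, growth hormone, had 1 count in wild type, 6 in the knockout and 149 with ZIC2, and its levels with ZIC2 were 2.58, 2.93 and 2.64 CPM. PTPN7, a tyrosine phosphatase, had 6, 10 and 126 counts, a scaled ratio of 21.8 to wild type (exact 95% interval 9.74 to 60.6). Both were called against the knockout (adjusted p = 3.63e-09 and 3.25e-08). GH1 has close paralogs in its cluster, so its counts are uncertain.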
